A study of Mus musculus with 16 samples.

Results

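The genes described here are 4 oxygenases of mouse liver that are known targets of the xenobiotic receptors CAR and PXR: the cytochrome P450 genes Cyp2b9, Cyp2b10 and Cyp3a11 and the flavin-containing monooxygenase Fmo5. They were taken as every probe whose only gene symbol in the platform annotation was one of these 4 names. This gave 4 probes, 1 for each gene, of 9596 probes and 6734 genes with a single symbol. The samples were livers of 8 female APOE3Leiden mice, which carry a transgene for a human apolipoprotein E variant on a largely C57BL6 background, fed cafestol (0.04% by weight) and kahweol (0.02%), both coffee diterpenes, in a Western-type diet with 15 g of fat and 0.25 g of cholesterol per 100 g. The control RNA came from livers of female mice of the same strain on that diet without the diterpenes (7 control mice in the study). Both diets were given for 4 weeks from 10 weeks of age, and all animals carried the transgene and ate the fat and cholesterol. Each treated liver was hybridised on 2 cDNA arrays (GEM 2.03), 16 arrays in all, with the cafestol-diet RNA in Cy5 and the control-diet RNA in Cy3. The dyes were swapped on no array, so diet and dye cannot be told apart in any ratio below.

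Each value is the log2 ratio of the 2 channels of an array as deposited. No label or file says which channel is on top, so the direction of every sign below is unknown, and "positive" and "negative" mean only the sign of the deposited value. For orientation, the glutathione S-transferase Gstm1 averaged -2.48 ± 0.23 and the bile acid enzyme Cyp7a1 1.56 ± 0.38 (log2 ratio, SD, n = 8 mice). The ratios were rounded to 1 decimal by the time of deposit, so the smallest step from a log2 ratio of 0 was 0.138. Array values numbered 8094 to 9314, and their number limits the precision. No label names a single control mouse, so the main tests hold no separate term for the spread among control mice. Whether part of that spread is already in the ratios is unknown. The identifiers of the treated mice form 2 series of 4, SY and TP, whose meaning no label states. Array codes nearly followed them: 9 arrays had code bl7 and 7 had code c3z, all TP arrays were bl7, and all SY arrays were c3z except 1 of the 2 arrays of SY518Z. Over 8059 genes and unnamed probes measured in all mice, TP4215 stood far from the other mice in 3.38%, SY518Z in 1.18%, and each of the other mice in 0.521% or less (a gap to the nearest mouse above Dixon's 95% critical value).

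CAR and PXR are nuclear receptors of hepatocytes that sense drugs, bile acids and other small molecules, pair with the retinoid X receptor and bind repeats of a hexamer half-site in the regulatory DNA of detoxification genes. CYP2B and CYP3A enzymes then insert oxygen into lipophilic compounds, using electrons from cytochrome P450 reductase and heme made in the same cells. Cyp2b10 is the classical phenobarbital-inducible gene of mouse liver and the usual readout of CAR, and Cyp3a11 is the usual readout of PXR. Cyp2b9 belongs to the same gene cluster as Cyp2b10 and is expressed more in female than in male liver. Fmo5 is a flavin enzyme of the endoplasmic reticulum that oxygenates carbonyl compounds.

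Cyp2b9, Cyp2b10 and Fmo5 had positive mean ratios, and no array gave a negative value for any of them. Cyp3a11 was negative on all 8 arrays of the TP mice and positive on the only array of an SY mouse that had a value. In whole liver, fewer cells of a type and less RNA per cell cannot be told apart. All of the 3 oxygenases that could be tested were called positive (limma, mean of the mice against 0, adjusted p under 0.05), where 18.0% of 8348 genes and unnamed probes were called positive 25.4% negative and 43.4% in either direction. Their means were among the larger positive ones and their spreads were wide. Of the 8348 tested, 78 had a larger mean than Cyp2b9, 86 than Cyp2b10 and 144 than Fmo5. The SD over mice was 0.43 for Cyp2b9, 0.36 for Cyp2b10 and 0.36 for Fmo5 (log2 ratio), against a median of 0.106 over everything tested, and 0.874% of the tested genes and probes had an SD of 0.35 or more. Only 30 of them had a larger SD than Cyp2b9.

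**Figure D1:**
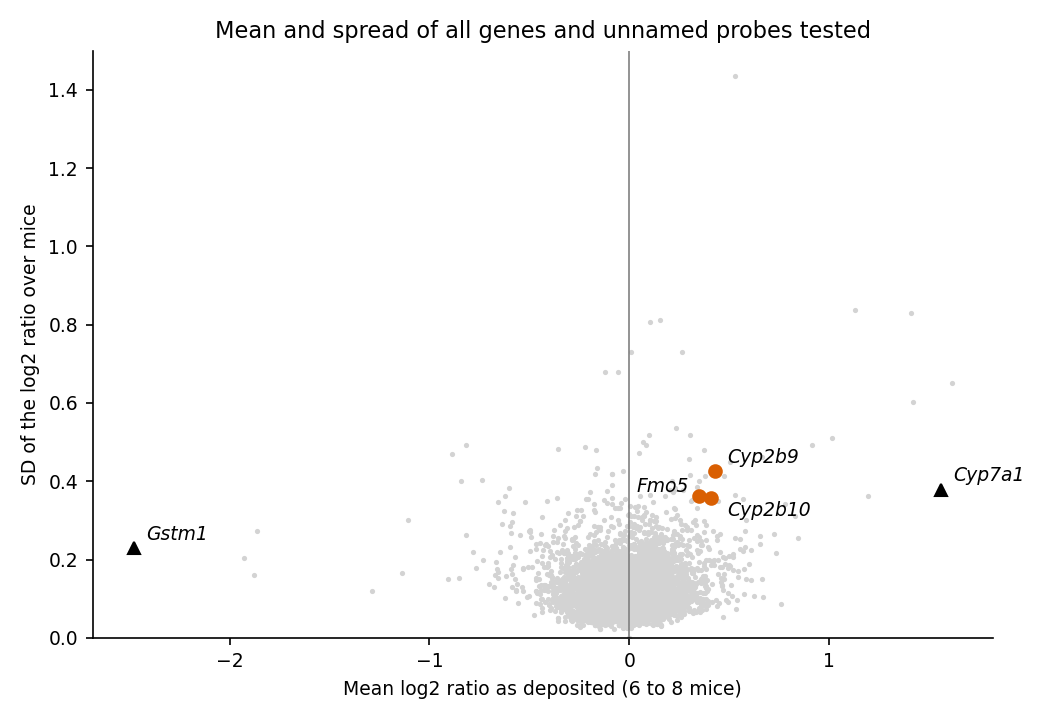
Mean log2 ratio as deposited (horizontal) against the SD over mice (vertical) for the 8348 genes and unnamed probes tested (grey points). Cyp2b9, Cyp2b10 and Fmo5 (orange) lie at means of 0.43, 0.41 and 0.35 with SDs of 0.43, 0.36 and 0.36, above the bulk of the points, and Gstm1 and Cyp7a1 (triangles) mark both far sides.

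The mice differed more than the 2 arrays of a mouse did. Both arrays of every mouse except SY518Z had the same array code. A difference between the codes would therefore fall into the SD over mice, and its share was not tested. The SD between the 2 arrays of a mouse was 0.071 for Cyp2b9, 0.044 for Cyp2b10, 0.050 for Fmo5 and 0.053 for Cyp3a11. The SD over mice was 6.01, 8.16, 7.25 and 6.73 times as large. For Cyp3a11 the array SD came from the 4 TP mice only, while the SD over mice included the single array of SY518Z. Without SY518Z the SD over mice of Cyp3a11 was 0.097 (n = 4). The 2 arrays of a mouse share its liver, so they counted as 1 replicate.

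**Figure D2:**
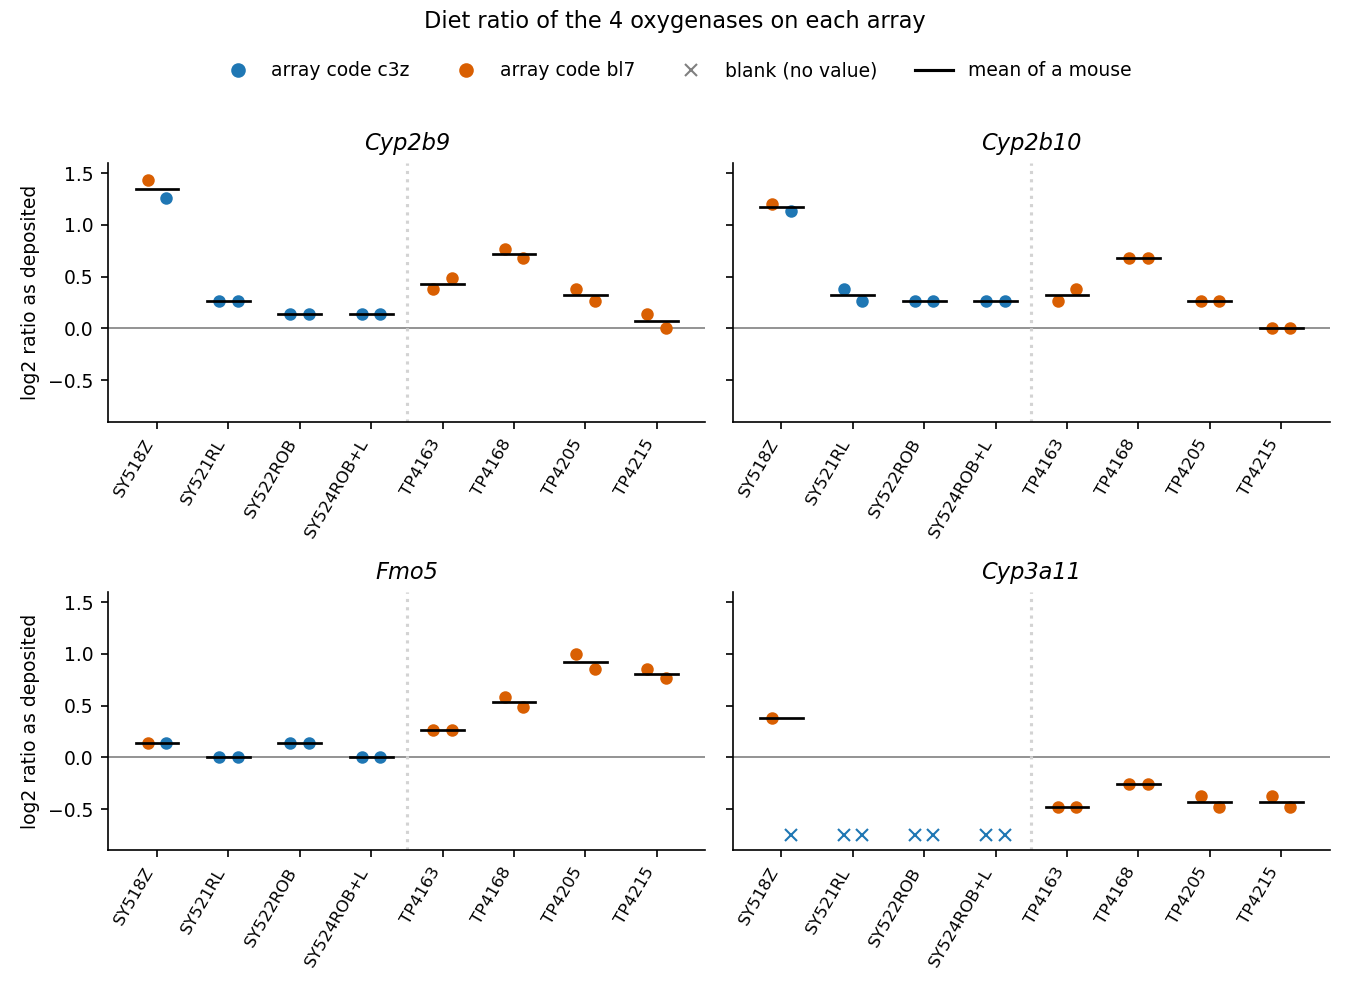
Log2 ratio as deposited of Cyp2b9, Cyp2b10, Fmo5 and Cyp3a11 on each of the 16 arrays (points, coloured by array code), by mouse, with the mean of each mouse as a line and blanks as crosses placed at the foot of the panel. SY518Z is highest for both Cyp2b genes at 1.35 and 1.17, the TP mice lie above the SY mice for Fmo5, and Cyp3a11 is blank on all 7 c3z arrays.

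Cyp2b10 (Entrez 13088) was positive in 7 of 8 mice and at 0 in the other one. In the SY mice it read 1.2 and 1.14 on the arrays of SY518Z, 0.38 and 0.26 in SY521RL, and 0.26 on both arrays of SY522ROB and of SY524ROB+L. In the TP mice it read 0.68 on both arrays of TP4168, 0.26 and 0.38 in TP4163, 0.26 on both arrays of TP4205, and 0 on both arrays of TP4215. SY518Z and TP4168 were therefore the high mice, 5 mice lay together near 0.3, and the identifier series overlapped. The mean log2 ratio was 0.41 ± 0.36 (SD, n = 8), a 1.33-fold difference (95% interval 0.19 to 0.63; limma, adjusted p = 0.00592; exact sign-flip test over mice, two-sided, p = 0.0156). With 7 mice away from 0 and none negative, the sign-flip test could give no smaller p. Without SY518Z the mean was 0.30 ± 0.20 (n = 7, limma adjusted p = 0.00339).

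Cyp2b9 (Entrez 13094), an enzyme that hydroxylates steroids such as testosterone, was positive in all 8 mice. It read 1.43 and 1.26 in SY518Z, 0.26 on both arrays of SY521RL, and 0.14 on both arrays of SY522ROB and of SY524ROB+L. It read 0.77 and 0.68 in TP4168, 0.38 and 0.49 in TP4163, 0.38 and 0.26 in TP4205, and 0.14 and 0 in TP4215. The order of the high and low mice was nearly that of Cyp2b10. The mean was 0.43 ± 0.43 (SD, n = 8), a 1.35-fold difference (95% interval 0.17 to 0.68; limma, adjusted p = 0.0113; exact sign-flip test p = 0.00781, the smallest that 8 mice allow). Without SY518Z it was 0.30 ± 0.22 (n = 7, limma adjusted p = 0.00631).

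Neither Cyp2b call held once a spread for control mice entered the test. When the spread of 7 control mice was added to the error, taken to be as wide as that of the cafestol mice, the limma adjusted p was 0.0959 for Cyp2b9 and 0.0647 for Cyp2b10. That step takes the control RNA as common to all arrays, which was not tested. In the TP mice alone, Cyp2b9 averaged 0.39 ± 0.27 (adjusted p = 0.0474) and Cyp2b10 0.32 ± 0.28 (adjusted p = 0.082), and in the SY mice alone they averaged 0.47 ± 0.59 (adjusted p = 0.197) and 0.50 ± 0.44 (adjusted p = 0.0976; SD, n = 4 in each series).

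The 2 Cyp2b probes gave nearly the same values mouse by mouse. The difference Cyp2b9 minus Cyp2b10 lay between -0.13 and 0.18 in every mouse and averaged 0.019 ± 0.11 (SD, n = 8). It was negative in SY521RL, SY522ROB and SY524ROB+L, and positive in SY518Z and in every TP mouse. Over the mice, Pearson's r was 0.975 (exact permutation p = 0.000595) and Spearman's rho 0.914 (exact permutation p = 0.00238), the only relation tested. Without SY518Z and TP4168, the mice farthest from the median of Cyp2b9, r was 0.676 over the other 6 mice. The size of r thus depended on which mice were included. Each series holds 4 mice, too few for a value of its own. A cDNA probe can cross-hybridise with paralogous transcripts, and whether both probes read the same transcript was not tested.

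**Figure D3:**
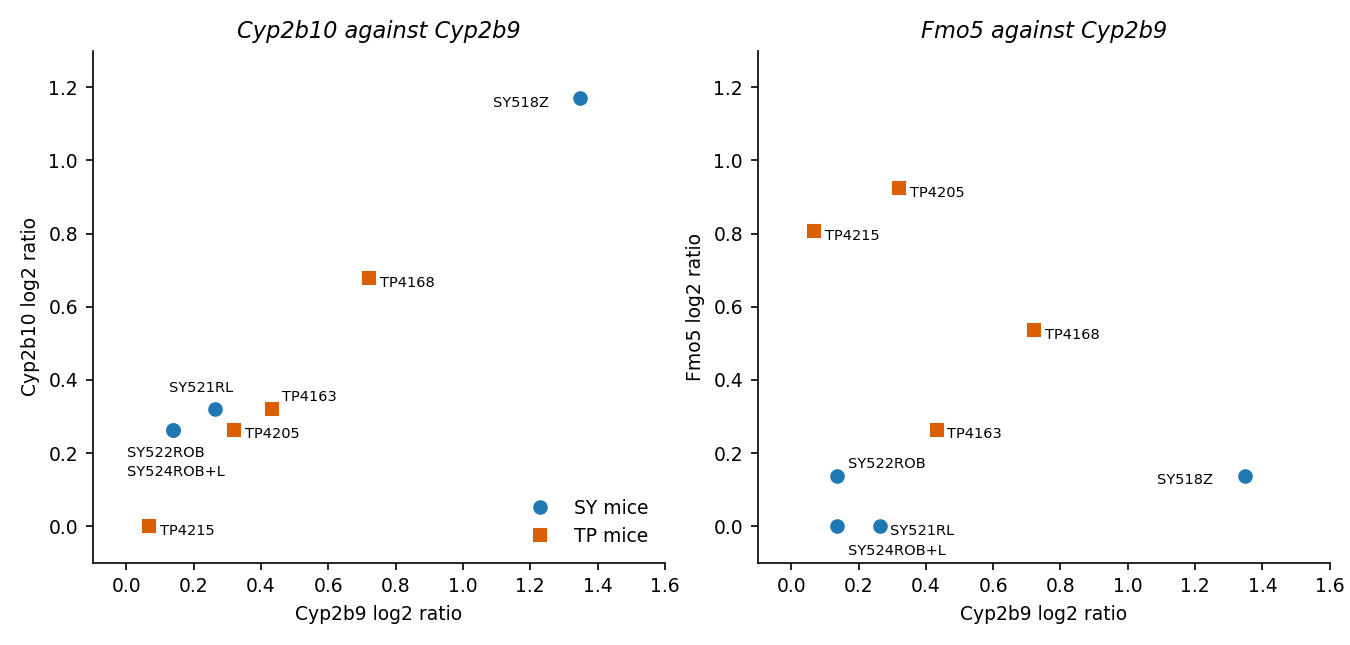
Mean log2 ratio of each mouse for Cyp2b10 (left, vertical) and Fmo5 (right, vertical) against Cyp2b9 (horizontal), SY mice as circles and TP mice as squares. Cyp2b10 follows Cyp2b9 from TP4215 (0.07 and 0) to SY518Z (1.35 and 1.17), whereas Fmo5 is at 0.14 in SY518Z and highest, at 0.92, in TP4205.

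The stretches of DNA before the starts of these 2 genes are shown because the genes gave one pattern over the mice and lie in one cluster: RefSeq's annotation (GRCm38.p6) places 5 Cyp2b genes on chromosome 7, of which 3 had a single-gene probe here. The sequences are the 250 bases before the gene start on the strand of the gene, from RefSeq on GRCm38.p6, 5′ to 3′, with capitals for the half-site AGGTCA or AGTTCA on either strand. Cyp2b10 lies at chr7:25897408-25897657 on the plus strand and Cyp2b9 at chr7:26173159-26173408 on the plus strand.
Cyp2b10: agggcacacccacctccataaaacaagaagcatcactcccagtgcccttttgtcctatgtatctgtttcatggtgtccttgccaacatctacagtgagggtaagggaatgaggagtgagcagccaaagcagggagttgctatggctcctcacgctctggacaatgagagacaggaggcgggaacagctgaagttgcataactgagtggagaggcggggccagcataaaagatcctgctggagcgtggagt
Cyp2b9: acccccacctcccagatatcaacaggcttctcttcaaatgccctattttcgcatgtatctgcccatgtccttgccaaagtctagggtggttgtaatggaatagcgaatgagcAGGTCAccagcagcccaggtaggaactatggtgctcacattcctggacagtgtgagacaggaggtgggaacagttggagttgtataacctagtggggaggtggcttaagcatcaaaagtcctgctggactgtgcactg
In a global alignment the pair was identical at 179 of 260 columns (68.8%), against 40.5% to 46% for the 5 other pairs of the 4 oxygenases. Cyp2b9 held 1 half-site, AGGTCA at bases 138 to 133 before the start, and Cyp2b10 held 0. Of all 32851 such windows, 14% held AGGTCA, 11.8% held AGTTCA and 24.2% held either, on either strand. The known phenobarbital-responsive enhancer of Cyp2b10 lies farther upstream than this window.

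Fmo5 (Entrez 14263) separated the 2 identifier series. In the SY mice it read 0.14 on both arrays of SY518Z and of SY522ROB, and 0 on both arrays of SY521RL and of SY524ROB+L. In the TP mice it read 1.0 and 0.85 in TP4205, 0.85 and 0.77 in TP4215, 0.58 and 0.49 in TP4168, and 0.26 on both arrays of TP4163. The groups did not overlap, since the highest SY mouse was below the lowest TP mouse. How many of the other genes and probes tested separated in this way was not counted. Over all mice the mean log2 ratio was 0.35 ± 0.36 (SD, n = 8, positive in 6 of 8 mice), a 1.28-fold difference (95% interval 0.13 to 0.57). The limma adjusted p was 0.0144, and with the spread of control mice added it was 0.111. The exact sign-flip test over mice gave p = 0.0312, the smallest that 6 mice away from 0 allow.

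The mean of Fmo5 was 0.069 ± 0.079 in SY mice and 0.63 ± 0.30 in TP mice (SD, n = 4 each), a difference of -0.56 (SY minus TP, 95% interval -0.82 to -0.31; limma, adjusted p = 0.0218; exact permutation p = 0.0286, the smallest that 4 against 4 mice allow). Of the 8348 tested, 5.70% differed between the series (4.41% lower and 1.29% higher in SY than in TP mice) and 33 had a larger difference than Fmo5. Within the TP mice alone Fmo5 stood at a 1.55-fold difference from 0 (limma, adjusted p = 0.0161), and within the SY mice alone it was not called (adjusted p = 0.24). Series and array code cannot be told apart in 7 of the 8 mice. In SY518Z, the mouse with an array of each code, Fmo5 read 0.14 on the bl7 and on the c3z array. With the array code as a term the difference was -0.54 (adjusted p = 0.0771). It was also not called without SY521RL (adjusted p = 0.0922), SY522ROB (0.0791), SY524ROB+L (0.0919), TP4205 (0.0635) or TP4215 (0.0657), while its size stayed between -0.69 and -0.47 on leaving out any 1 mouse.

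The Cyp2b genes were not called between the series. The SY minus TP difference was 0.19 for Cyp2b10 (95% interval -0.23 to 0.60; limma, adjusted p = 0.559) and 0.086 for Cyp2b9 (95% interval -0.42 to 0.59; adjusted p = 0.848) and both intervals are wide. Without SY518Z the differences were -0.033 for Cyp2b10 and -0.21 for Cyp2b9. With the array code as a term they were 0.49 (adjusted p = 0.348) and 0.55 (adjusted p = 0.386), where the only bl7 array of an SY mouse was that of SY518Z. The mice high for the Cyp2b genes and for Fmo5 were not the same ones. SY518Z, highest for Cyp2b9, was at 0.14 for Fmo5, and TP4215, lowest for both Cyp2b genes, was second highest for Fmo5 at 0.81. No correlation of the Cyp2b genes with Fmo5 was tested, because the values of Fmo5 fall into 2 separate series of 4 mice.

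Cyp3a11 (Entrez 13112), a main drug-oxidising P450 of mouse liver, had values on 9 of 16 arrays and in 5 of 8 mice, under the minimum of 6 mice, and was not tested in the fit over all genes. SY518Z read 0.38 on its bl7 array and was blank on its c3z array, and SY521RL, SY522ROB and SY524ROB+L were blank on both arrays. In the TP mice it read -0.49 on both arrays of TP4163, -0.38 and -0.49 in TP4205 and in TP4215, and -0.26 on both arrays of TP4168. The TP mice thus lay together at -0.40 ± 0.10 (SD, n = 4), and the SY518Z value lay apart from them on the opposite side of 0. The mean of the 5 mice was -0.25 ± 0.36 (SD, n = 5), and an exact sign-flip test over mice gave p = 0.188, where 5 mice allow no less than 0.0625. With a minimum of 3 mice the limma adjusted p was 0.121 for the 5 mice, and without SY518Z it was 0.00127 at a mean of -0.40. The 4 mice left in that fit are the TP mice. A limma fit of the TP mice by themselves gave an adjusted p of 0.00665 for the same 4 values. It differs from 0.00127 because limma also draws on the other genes and mice in a fit. The exact test on these 4 mice gave p = 0.125, the smallest that 4 mice allow.

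The blanks of Cyp3a11 followed the array code without exception, with a value on all 9 bl7 arrays and on 0 of 7 c3z arrays. This pattern was shared by 206 of the 9596 probes, and 255 probes had the reverse one. Blanks numbered 439 to 1502 on bl7 arrays and 282 to 347 on c3z arrays and no source used here says why a value is blank. A comparison of SY with TP mice is thus not possible for Cyp3a11. The 250 bases before its start (chr5:145879855-145880104, minus strand, GRCm38.p6, RefSeq) held 2 half-sites, the most among the 4 oxygenases, and Fmo5 held 0. One was AGGTCA on the strand of the gene and the other AGTTCA on the opposite strand, shown in capitals in 30 bases each, with the first base 174 and 154 bases before the start:
Cyp3a11 first: ttagctcaaagtAGGTCAagttgggctgtg
Cyp3a11 second: ttgggctgtggaTGAACTatacgaactgcc
These are matches of letters only.

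The genes whose pattern over the 8 mice was most like each oxygenase were found by Pearson's r among 415 named genes with an SD of at least 0.2, as a description. For Cyp2b10 they were Hsd11b1, which regenerates active glucocorticoid (r = 0.969), Apoa2, a protein of high-density lipoprotein (0.948), the methyltransferase Inmt (0.904) and the P450 gene Cyp3a59 (0.866). For Cyp2b9 they were Apoa2 (0.970), Hsd11b1 (0.964), the carboxylesterase Ces1d (0.925) and Inmt (0.914). In every one of these SY518Z was the highest mouse, at 0.81 for Hsd11b1, 0.43 for Apoa2, 0.63 for Cyp3a59, 0.63 for Ces1d and 1.77 for Inmt. The choice by r favours this, because SY518Z was highest for both Cyp2b genes, so it is no separate result. The means of the 5 chosen genes over the mice were not alike. Only Inmt was called (1.2 ± 0.36, limma adjusted p = 6.51e-06), while Hsd11b1 averaged 0.08 ± 0.32 (adjusted p = 0.483) and Apoa2 -0.09 ± 0.22 (adjusted p = 0.293). The genes most like Fmo5 were the polycomb gene Phc1 (r = 0.965), the mitochondrial carrier Sfxn2 (0.965), the chemokine Ccl4 (0.960) and the arsenic methyltransferase As3mt (0.957), all higher in TP than in SY mice: Sfxn2 averaged 0.084 in SY and 0.43 in TP mice, and As3mt 0.10 and 0.50. Fmo5 itself separated the series, so a choice by r with it favours genes that differ between them. Series and array code nearly coincide, and their part in these r values was not tested.

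**Figure D4:**
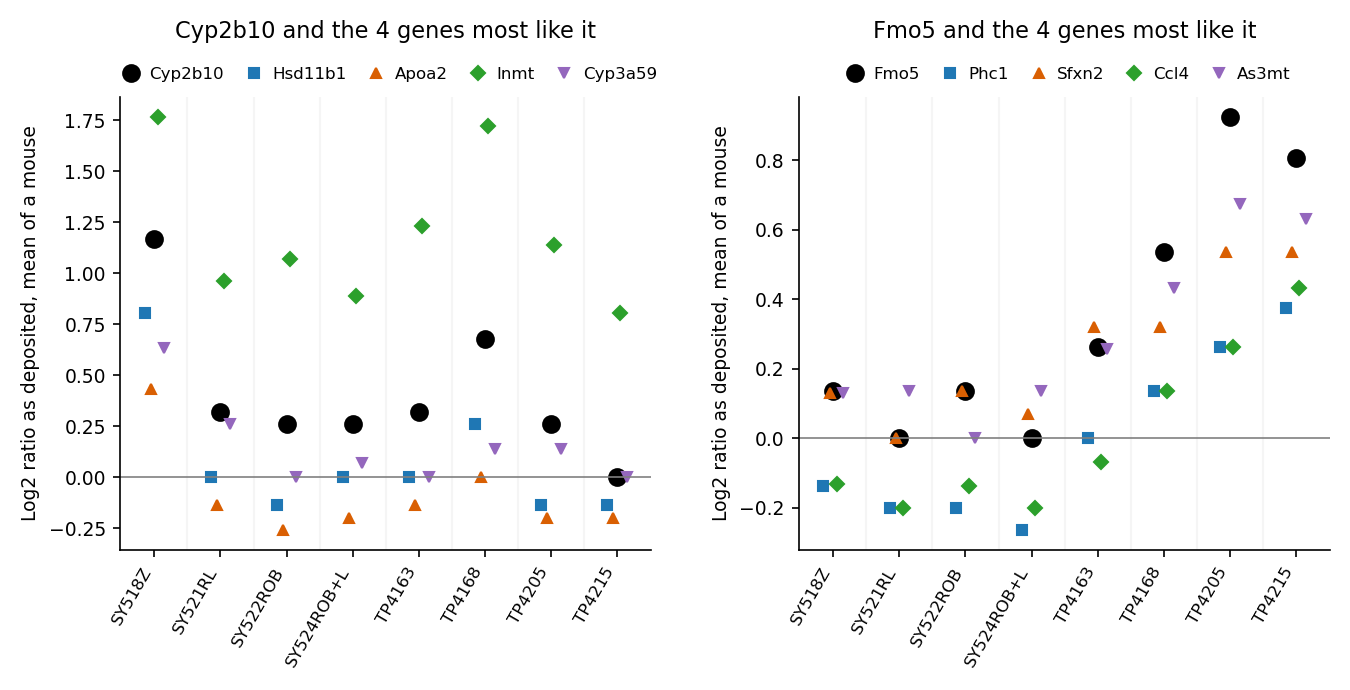
Mean log2 ratio of each mouse for Cyp2b10 (left) and Fmo5 (right, black circles) and for the 4 named genes with the highest Pearson's r over the 8 mice (coloured symbols). In the left panel SY518Z is the highest mouse for all 5 genes, and in the right panel the 4 TP mice lie on the right and above the SY mice for Fmo5, which ranges from 0 to 0.92.

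The pathway around these oxygenases did not move as 1 block. Of 16 listed genes for the receptors, their partners and coregulators, 8 were tested, and 3 were positive, 2 negative and 3 not called, with a median log2 ratio of 0.10. Over all genes and probes tested the median was -0.017, with 18.0% positive and 25.4% negative. The positive ones were Nr1i2, which encodes PXR (0.22 ± 0.20, adjusted p = 0.00938), the coactivator Ppargc1a (0.20 ± 0.05) and the hepatocyte factor Hnf4a (0.10 ± 0.08). Rxrb, a retinoid X receptor, was negative at -0.09 ± 0.05 and the coactivator Ncoa6 at -0.15 ± 0.09, while its relative Rxra (0.12 ± 0.16), the coactivator Ncoa1 (0.01 ± 0.06) and the chaperone Hsp90aa1 (0.11 ± 0.81) were not called. Nr1i3, which encodes CAR, was not analysed here. Of 18 other listed CYP2A, CYP2B, CYP2C and CYP3A targets only Cyp3a13 (0.10 ± 0.19, adjusted p = 0.198) and Cyp2c65 (0.05 ± 0.10) were tested, and 0 were called. Cyp2b19, another gene of the Cyp2b cluster, had values in 5 mice and was not tested.

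Genes for the steps after oxygenation, which CAR or PXR can also induce, were called on both sides of 0. Of 20 tested conjugating, hydrolysing and transport genes 2 were positive, 9 negative and 9 not called (median -0.088), against 18.0% positive and 25.4% negative over everything tested. The negative ones were led by Gstm1, Gstm2 (-1.86 ± 0.27), the epoxide hydrolase Ephx1 (-1.14 ± 0.16), Gsta2 (-1.11 ± 0.30), Gsta4 (-0.85 ± 0.15) and the drug exporter Abcb1b (-0.28 ± 0.28). The positive ones were the sulfotransferase Sult5a1 (0.20 ± 0.19) and the bilirubin and drug exporter Abcc2 (0.12 ± 0.13). Uncalled ones also had means on both sides of 0, among them the glutathione S-transferase Gstt1 (0.11 ± 0.19), the sulfotransferase Sult1d1 (0.09 ± 0.22), the fatty acid transporter Cd36 (-0.08 ± 0.14) and the aldehyde dehydrogenase Aldh1a7 (-0.09 ± 0.22). Several of these transferases are induced through NRF2 as well, and their cDNA probes can bind paralogs.

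**Figure D5:**
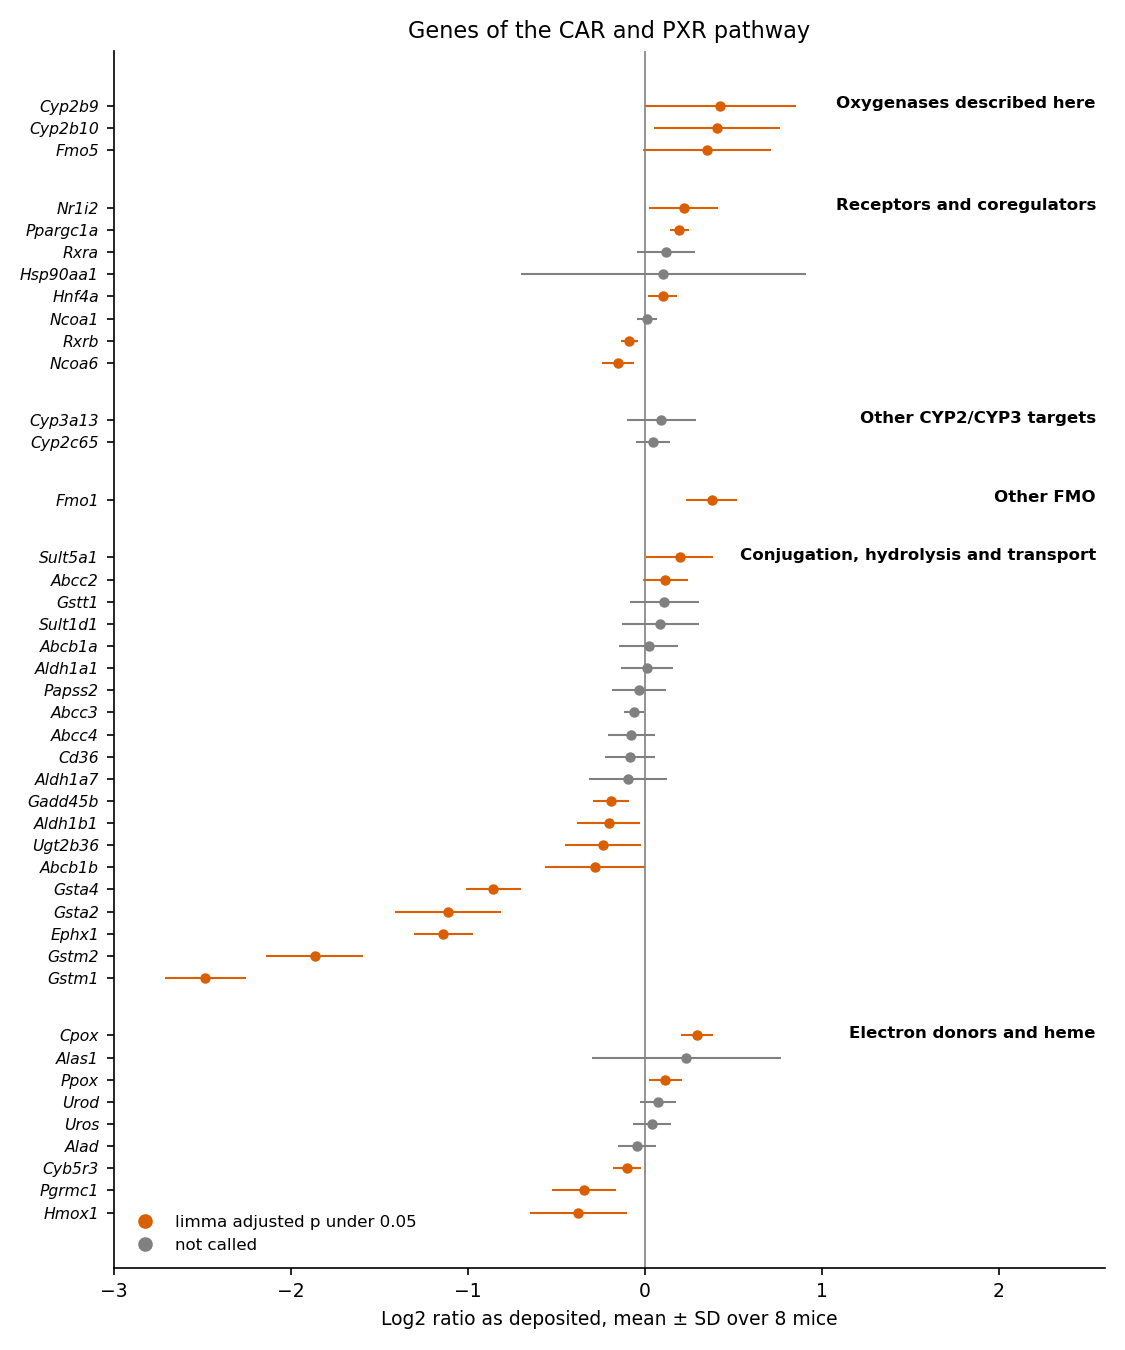
Mean log2 ratio as deposited with the SD over 8 mice (points and bars) for Cyp2b9, Cyp2b10 and Fmo5 at the top and for listed genes of the CAR and PXR pathway below, orange where limma's adjusted p was under 0.05. The 3 oxygenases lie at 0.35 to 0.43, and the conjugating genes reach -2.48 for Gstm1.

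Among 9 tested genes for electron supply and heme, 2 were positive, 3 negative and 4 not called (median 0.041), shares near the 18.0% and 25.4% over everything tested. Cpox, an enzyme of heme synthesis, was positive at 0.30 ± 0.09 and Ppox, which acts after it, at 0.12 ± 0.09. Hmox1, which degrades heme (-0.38 ± 0.28), the heme-binding P450 partner Pgrmc1 (-0.34 ± 0.18) and the reductase Cyb5r3 (-0.10 ± 0.08) were negative. Alas1, the rate-limiting enzyme of heme synthesis and itself a CAR target, lay between -0.43 and 1.0 and was not called (0.24 ± 0.54, adjusted p = 0.212). The only other flavin-containing monooxygenase with a probe, Fmo1, was positive in 8 of 8 mice (0.38 ± 0.14, limma adjusted p = 5.82e-05). It did not separate the series as Fmo5 did, with means of 0.39 in SY and 0.36 in TP mice (adjusted p for the difference 0.858; the 2 genes' differences were not tested against each other).

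Cyp2b9 is one of 5 tested genes of a female-biased liver list, of which 4 were positive and 1 negative (18.0% and 25.4% over everything tested). The others were the sulfotransferase Sult3a1 (0.92 ± 0.49), the steroid enzyme Cyp17a1 (0.83 ± 0.31), the transcription factor Cux2 (0.21 ± 0.11) and, negative, the hydroxyacid oxidase Hao2 (-0.17 ± 0.10). Of 3 tested male-biased genes the P450 Cyp2d9 was positive (0.29 ± 0.17), Cyp7b1 negative (-0.17 ± 0.12) and Elovl3 not called (0.06 ± 0.09). The animals were all female, and the direction of the ratio is unknown for these genes too.

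Markers of other liver cells were called negative more often than positive. In each of their lists a larger share was negative than the 25.4% over everything tested (18.0% positive), though the lists are short. Of 8 tested macrophage markers 5 were negative and 0 positive, of 9 stellate cell markers 4 and 0, of 7 lymphocyte markers 5 and 0, of 4 endothelial markers 2 and 0, and of 5 bile duct markers 3 and 1. Hepatocyte markers went both ways, with 3 of 8 positive (Fgb, Apob and Hnf4a) and 2 negative (Trf and Apoa1), and Alb, which defines hepatocytes, was not called (0.14 ± 0.30). Summed over its list, the log2 ratio of a mouse ranged from -3.12 to 1.14 for macrophages, -3.62 to -0.16 for stellate cells and -1.16 to 1.69 for hepatocytes. Their part in the oxygenase values was not tested. The files hold ratios only, so no marker's level can be read from them.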

How the data were processed

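The deposited values were log2 ratios from 16 cDNA arrays with both RNAs on each, and per the labels each of 8 mice had 2 arrays. No source used here states how the authors normalized them, treated background or set the ratio's direction. All 144660 values came from ratios rounded to 1 decimal (tolerance 0.01), 31.8% were 0, every array's median was 0, and nothing was rescaled. Gene symbols came from the 2007 platform annotation, checked by Entrez identifier against RefSeq's table (GRCm38.p6): 7407 probes had 1 symbol, 437 several and 1752 none. Probes of a gene were averaged, then the 2 arrays of a mouse. This gave 8923 genes and unnamed probes, of which 575 lacked values in 6 mice and 8348 were tested with limma 3.58.1 in R 4.3.3 (lmFit, then eBayes). Two-sided p-values were adjusted by Benjamini-Hochberg over all 8348 and called under 0.05, for the mean against 0 and for SY against TP mice. The step was tested on simulated data with independent normal noise for each gene. It recovered 71.64% of 1.2-fold and 98.51% of 1.5-fold diet ratios, and 31.34% and 92.54% of such SY minus TP differences. Calls among unchanged genes numbered 5 and 11. The simulation held no effect of the array code and none shared by the genes of a mouse, so it does not cover these. The oxygenases, lists and tests were chosen with earlier results of these data known, so no list is independent support. Named genes were the 4 oxygenases, the 4 genes most like each, up to 6 called and 4 uncalled genes of each list, and Gstm1 and Cyp7a1. Cyp2b19, Sult5a1 and Abcc2 were named outside that rule, after their values were seen. Upstream windows were aligned with Biopython 1.88 (match 2, mismatch -1, gap opening -5, gap extension -0.5). Alternatives covered array centring, scaling, quantile normalization, single probes, filters on blanks, moderation, each mouse and array, the series, the array code, a minimum fold and the spread of control mice. Figures used matplotlib 3.10.9.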

Additional observations from a re-analysis of the deposited data

Results flagged for a closer look

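In 11 groups of mice (all mice, SY and TP mice, for each oxygenase with 4 or more values) the highest and the lowest mouse were compared with their neighbours, and chance would flag about 1 in 20 such groups. SY518Z stood far above the other SY mice for Cyp2b9 (1.35) and Cyp2b10 (1.17), and above the TP mice for Cyp3a11 (0.38, 1 array). Among all 8 mice it did not pass that limit for either Cyp2b gene. Fmo5 differed between SY and TP mice by -0.56 (SY minus TP, limma adjusted p = 0.0218, with all 4 SY mice below all 4 TP mice). Of all tested, 5.70% were called between the series, and how many separated fully was not counted.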

How the results depend on the processing

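In the SY mice alone none of the 3 tested oxygenases was called: Cyp2b9 stood at 0.47 (limma adjusted p = 0.197), Cyp2b10 at 0.50 (0.0976) and Fmo5 at 0.069 (0.24), and Cyp2b10 was not called in the TP mice alone either (0.32, 0.082). Against a minimum difference of 1.2-fold Cyp2b9 (0.43), Cyp2b10 (0.41) and Fmo5 (0.35) all had an adjusted p of 1, and with the spread of control mice added it was 0.0959, 0.0647 and 0.111. Under the other alternatives, leaving out each mouse included, these 3 kept their sign and their call, with adjusted p between 0.000102 and 0.0474. The count of 3622 called became 2159 in the SY mice alone, 123 at the minimum fold and 1811 with control spread, and 3038 to 3776 without 1 mouse. The SY minus TP difference of Fmo5 was -0.54 with the array code as a term (adjusted p = 0.0771) and -0.61 on the first array of each mouse (0.152), and lay between -0.69 and -0.47 without 1 mouse. Without 1 mouse that of Cyp2b9 lay between -0.21 and 0.20, negative without SY518Z (-0.21) or TP4215 (-0.02), and that of Cyp2b10 between -0.033 and 0.31, negative without SY518Z. With the array code as a term they were 0.55 and 0.49, uncalled as in the other settings. The count of 476 between the series was 130 with the array code, 228 on the second arrays and 0 by limma on the first arrays (1467 at an unadjusted p under 0.05), and 33 to 1275 without 1 mouse (1275 without SY518Z, 252 without TP4168, 184 without TP4215, 99 without TP4205, 47 without SY521RL, 37 without SY524ROB+L and 33 without SY522ROB). For Cyp3a11 leaving out 1 mouse gave means of -0.40 to -0.19. Settings that need a value on both array codes or in 6 mice gave no value for Cyp3a11. The cause of these changes was not tested. Rounding to steps of 0.138 and an unknown signal over background limit all small values.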
